A study of Rattus norvegicus with 6 samples.

Results

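The 63 genes described here were the most abundant ones in control or MS-275-treated BRIN-BD11 cells by their share of the sequenced counts. They were chosen from the measured values, as the union of the 50 genes with the highest mean over the 3 control libraries and the 50 with the highest mean over the 3 MS-275-treated libraries, out of 22250 genes counted. The measure was the CPM, a gene's counts per 1000000 counts on genes in that library. Membership, rank, level and the difference in level between the groups were thus all known to the choice, and they are given as a description. The number of members past the test across all genes is given at the end. Log2 fold changes of single members, and for some of them whether they passed, are given as a description too. Nothing is read from these test outcomes.

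The cells, BRIN-BD11, form a glucose-responsive line of rat beta cells that secretes insulin, made by fusing RINm5F insulinoma cells with islet cells of NEDH rats in an electric field. MS-275, also called entinostat, inhibits histone deacetylases of class 1. All 6 libraries came from cells at passage 25. The MS-275 group received 5 µM of the compound for 16 h in complete medium, starting 24 h after seeding at 500000 cells per well. The labels give 0.1% DMSO as its solvent and no HDAC inhibitor for the controls, which the labels call WT and which the paper describes as treated with DMSO at a lower concentration than this. If both statements hold, the solvent level and MS-275 cannot be told apart. The study compared the transcriptomes of treated and control cells at 1 dose and 1 time in this single line. Nothing in the labels says that the libraries of a group came from separate cultures, so the spread between them may be technical.

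Class 1 histone deacetylases remove acetyl groups from histones, and their inhibition raises histone acetylation and changes the transcription of many genes in both directions. The most abundant transcripts of a cultured cell usually encode proteins of translation, energy metabolism, the cytoskeleton and protein folding, and in beta cells also those of the secretory granule. A read count grows with the length of a transcript as well as with its number of copies, and the shares of all genes in a library sum to a fixed total. Which of these classes the 63 genes belong to was not analysed here. The deposited tables list Ensembl identifiers without gene names, and 0 of the 22250 could be matched to a symbol through RefSeq's rat gene table. The beta cell markers were for the same reason not checked. Genes are therefore called by their rank in the controls and their rank with MS-275, and 4 of them also by identifier. In bulk RNA, fewer cells of a kind and less of a transcript per cell cannot be told apart.

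The libraries held between 5230555 and 9172422 counts on genes. The lowest count of any of the 63 genes in any library was 1699 and the highest 209668. Among the shares printed in the text for single libraries, the widest 95% Wilson interval was 0.0320 percentage points to either side. It covers counting error only. All 63 genes passed the filter on low counts.

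Of the 63 genes, 37 were among the top 50 of both groups, 13 entered the top 50 upon MS-275 treatment and the same number, 13, left it. Of the 10 most abundant genes of each group 8 were shared, and of the 25 most abundant 20 were shared. The limits of the lists were narrow. In the controls the gene at rank 50 had 1061 ± 8.46 CPM (SD, n = 3) and the gene at rank 51 had 1045 ± 87.9 (SD, n = 3). With MS-275 the gene at rank 50 had 1208 ± 50.9 CPM (SD, n = 3) and the gene at rank 51 had 1185 ± 48.3 (SD, n = 3). The genes on either side of a limit differed by less than the SD of the gene at rank 51, in the controls by more than that of the gene at rank 50. The level needed to be among the 50 was higher in the treated cells. Between single libraries, the top 50 shared 44 to 49 genes in the 6 pairs from the same group and 37 to 39 genes in the 9 pairs of a control and a treated library. Of the 37 genes common to both lists, 34 were in the top 50 of all 6 libraries. Of the 13 entering genes, 8 were in the top 50 of every treated library and of no control library, and 7 of the 13 leaving genes were in the top 50 of every control library and of no treated library.

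**Figure D1:**
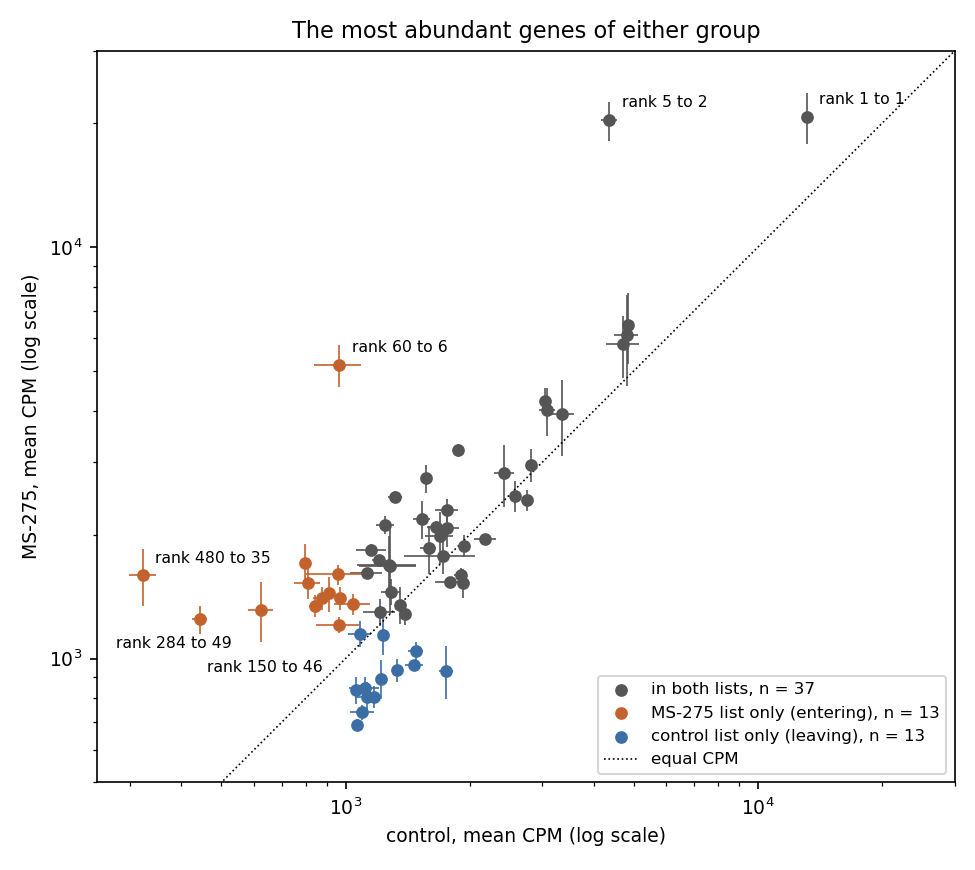
Mean CPM of the 63 genes in the controls (x axis) and with MS-275 (y axis), both on log scales, with bars of 1 SD over 3 libraries. The 13 entering genes (orange) lie above the line of equal CPM, the genes of ranks 60, 150, 284 and 480 in the controls being labelled with both ranks, while 12 of the 13 leaving genes (blue) lie below it.

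The 63 genes took a larger share of the counts in the treated cells. Their summed share was 11.7%, 11.6% and 11.9% in the control libraries, by replicate number, and 15.3%, 16.7% and 17.1% in the treated ones. The mean went from 11.7% ± 0.111 to 16.4% ± 0.920 (SD, n = 3 each), a difference of 4.63 percentage points. All 3 treated libraries were above all 3 controls. The treated libraries also differed more among themselves, with replicate 1 the lowest. Of the 63 genes, 42 had a higher mean CPM with MS-275 and together gained 5.26 percentage points, and 21 had a lower one and their summed share fell by 0.628 percentage points. The gain was concentrated in a few genes, since 3 of them made up more than 50% of the 5.26 points. The 37 genes in both lists gained 3.89 percentage points in sum, the 13 entering genes gained 1.18, and the 13 leaving genes fell by 0.441 in sum.

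The most abundant genes were also picked in each library separately. These were nearly the same genes, since only 6 genes in the top 50 of any library were not members. In each treated library the top 2 were the 2 most abundant genes of the group. The shares of these lists are therefore no separate observation of the gain. The 50 most abundant genes of a library held 10.7% ± 0.124 of its counts in the controls and 15.2% ± 0.895 with MS-275 (SD, n = 3 each). For the 2 most abundant genes of a library the shares were 1.81% ± 0.0217 and 4.11% ± 0.496 (SD, n = 3 each). The first 50% of the counts were held by the most abundant 1229, 1215 and 1194 genes in the control libraries and by 1034, 1021 and 1015 genes in the treated libraries. The groups did not overlap in this number. Over all 22250 genes ordered by the mean of both groups, the share of the first 100 was higher by 4.76 percentage points with MS-275. That of ranks 101 to 500 differed by -0.247 points, less than the spread between the treated libraries (SD 0.400). The share of ranks 501 to 2000 differed by -2.31 points and that of ranks 2001 to 6000 by -2.69 points, whereas the genes below rank 6000 gained 0.490 points. The counts gained by the most abundant genes were thus matched by lower shares of genes of middle abundance.

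**Figure D2:**
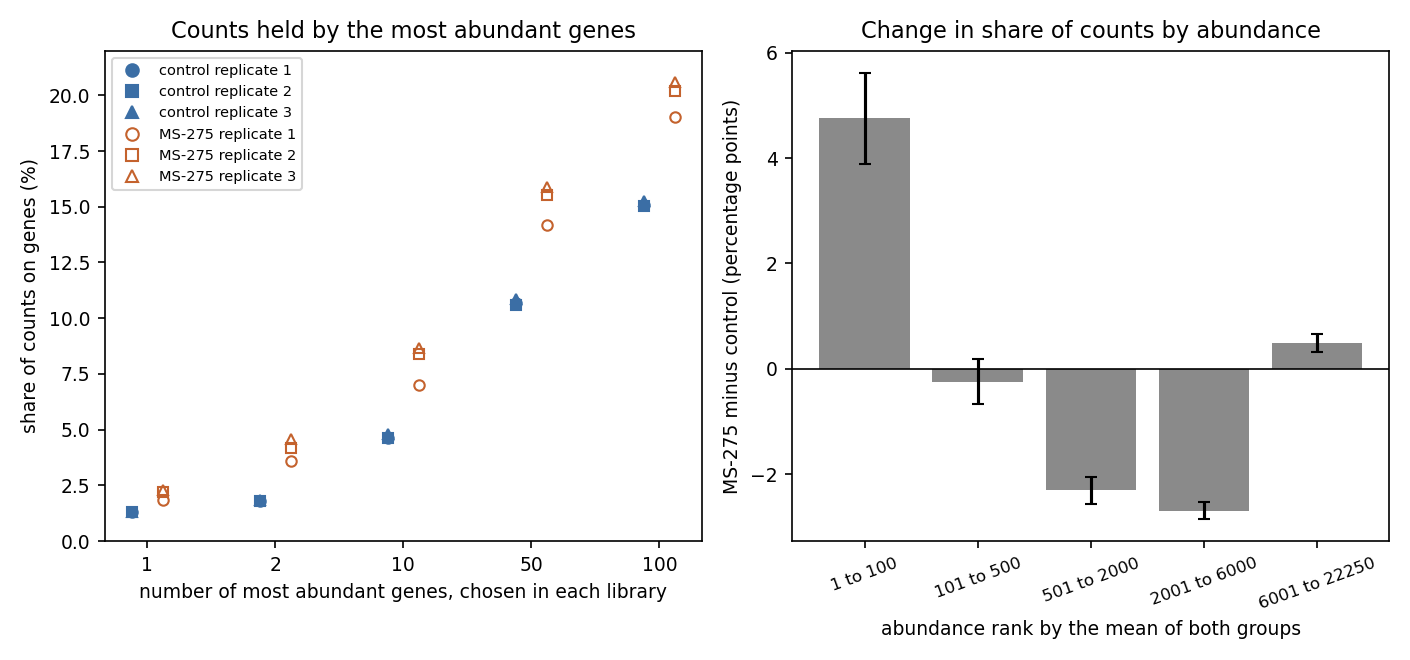
Left, the share of counts on genes (%) held by the 1, 2, 10, 50 and 100 most abundant genes of each library, with 1 point per library (filled, control; open, MS-275). Right, bars of the difference in share between the group means (MS-275 minus control, percentage points) by abundance rank over all genes, with bars of error that combine the SD of both groups; ranks 1 to 100 gained 4.76 points and ranks 501 to 6000 lost.

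A pair of genes at the top of the treated libraries held much of the gain. The gene of rank 1 in both groups had 13145, 13006 and 13221 CPM in the control libraries and 17406, 21990 and 22859 CPM in the treated libraries, here and below in the order of their replicate numbers. It took 1.31% of the counts in the controls and 2.08% with MS-275. The gene listed as ENSRNOG00000021269 moved from rank 5 to rank 2. Its values were 4478, 4134 and 4454 CPM in the controls and 18387, 19953 and 22750 CPM in the treated libraries. All 3 treated libraries were far above the controls, and the ratio of the group means was 4.68. Its log2 fold change in edgeR's fit across all genes, with TMM scaling, was 2.29 with a standard error of 0.10. By share this gene went from 0.436% ± 0.0192 to 2.04% ± 0.221 of the counts (SD, n = 3 each), a gain of 1.60 percentage points, the largest of the 63. The gene of rank 1 gained 0.763 points. Both genes together made up 51.1% of the net gain of the 63 genes, and without them the other members still went from 9.99% ± 0.0873 to 12.3% ± 0.437 (SD, n = 3 each).

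The 13 entering genes came from control ranks between 52 and 480, with a median of 74. Of these, 10 were already among the 100 most abundant genes of the controls and 3 were below rank 100. Their summed share was 1.08%, 1.05% and 1.03% in the controls and 2.25%, 2.26% and 2.18% with MS-275, and here the treated replicates were close to one another. Mean CPM was at least doubled in 5 of the 13, and the ratio of the means ranged from 1.25 to 5.37 with a median of 1.67.

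The gene listed as ENSRNOG00000030954 reached the highest rank among the entering genes, from 60 in the controls to 6 with MS-275. It had 827, 1077 and 989 CPM in the controls and 5550, 5495 and 4492 CPM in the treated libraries, and its log2 fold change in edgeR's fit was 2.49 (standard error 0.11), the highest of the 63 genes. Replicate 3 was the lowest of the treated libraries for this gene, and all 3 were far above the controls. It alone gained 0.421 percentage points. The gene that came from rank 480 and reached rank 35 had the lowest control level of all members. It had 346, 324 and 298 CPM in the controls and 1760, 1720 and 1307 CPM with MS-275, a ratio of the means of 4.94. Its treated libraries were all well above the controls, and replicate 3 was again the lowest of them.

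From rank 284 to rank 49 came a gene that had 463, 425 and 440 CPM in the controls and 1351, 1235 and 1156 CPM with MS-275. Another, of ranks 94 and 29, had 819, 798 and 782 CPM in the controls and 1876, 1742 and 1493 CPM with MS-275. In both genes replicate 1 was the highest treated library and replicate 3 the lowest. A gene of ranks 150 and 46 had the reverse order, with 672, 606 and 590 CPM in the controls and 1104, 1301 and 1540 CPM with MS-275. The remaining 8 entering genes were less than doubled. The one nearest to the limit in the controls, of ranks 52 and 43, had 927, 1077 and 1125 CPM in the controls and 1313, 1302 and 1446 CPM with MS-275. The one nearest to the limit with MS-275, of ranks 61 and 50, had 1096, 925 and 871 CPM and 1160, 1261 and 1202 CPM. In this last gene the highest control, replicate 1, lay close below the lowest treated library.

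**Figure D3:**
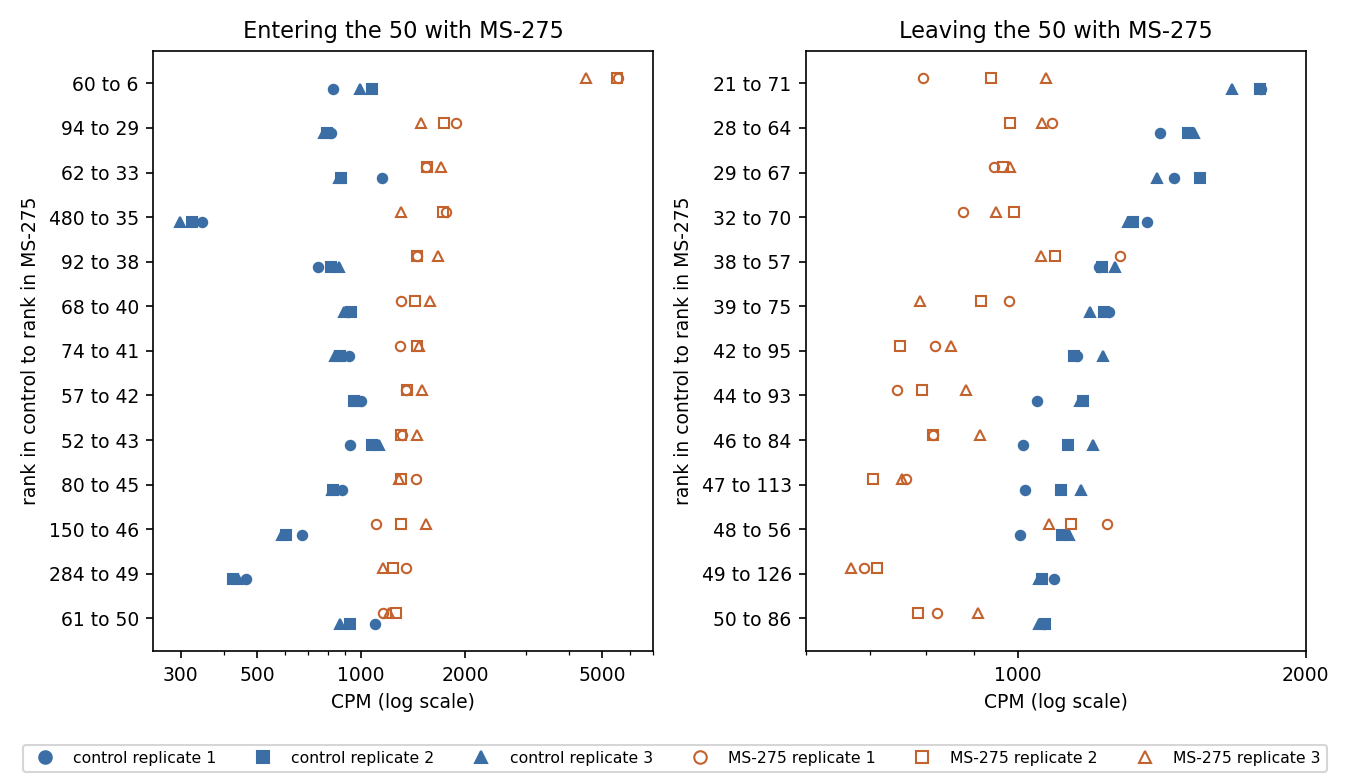
CPM on a log scale in every library for the 13 entering genes (left) and the 13 leaving genes (right), each row labelled with the rank in the controls and the rank with MS-275; filled symbols are controls and open symbols are MS-275, with 1 shape per replicate. The groups do not overlap in the 13 entering genes, all higher, and in 11 of the 13 leaving genes, all lower. Of all genes tested, 30.7% did not overlap and were higher and 38.0% did not overlap and were lower. Nothing is read from this, since the entering and leaving genes were split by these same CPM.

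The 13 leaving genes had control ranks between 21 and 50 and treated ranks between 56 and 126. None was halved in mean CPM. The ratio of the means was between 0.533 and 1.06 with a median of 0.705. Their summed share was 1.59%, 1.64% and 1.63% in the controls and 1.18%, 1.16% and 1.20% with MS-275, and all 3 treated libraries were below all 3 controls.

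The lowest ratio was that of ENSRNOG00000018823, which moved from rank 21 to rank 71. It had 1795, 1791 and 1674 CPM in the controls and 795, 937 and 1070 CPM with MS-275, with a log2 fold change of -0.84 and a standard error of 0.10 in edgeR's fit. Its treated libraries were well below the controls and spread by 14.7% of their mean, against 3.92% in the controls. The longest way down in rank was that of ENSRNOG00000001409, from 49 to 126. It had 1091, 1059 and 1052 CPM in the controls and 690, 711 and 668 CPM with MS-275, and a log2 fold change of -0.56 (standard error 0.07). Both groups were tight in this gene. Similar values were found for ranks 29 and 67, with 1456, 1551 and 1399 CPM in the controls and 943, 964 and 979 CPM with MS-275. It stood about as far from its control level as ENSRNOG00000001409 did, with a ratio of 0.655 against 0.646.

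In 2 of the leaving genes the values of the groups overlapped. One, of ranks 48 and 56, had 1004, 1112 and 1130 CPM in the controls and 1239, 1135 and 1077 CPM with MS-275. Its mean was higher with MS-275, so it left the 50 because the limit rose above it. The other, of ranks 38 and 57, had 1214, 1224 and 1263 CPM in the controls and 1277, 1092 and 1055 CPM in the treated libraries, of which replicate 1 was above every control. Its log2 fold change was -0.05 (standard error 0.08), and it was positive with upper-quartile scaling (0.05) and without MS-275 replicate 3 (0.01).

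Among the 37 genes in both lists, 19 moved by at most 5 ranks, 6 rose by more than 10 ranks and 5 fell by more than 10. The largest rises were by 18 ranks, in the genes of ranks 33 and 15 and of ranks 37 and 19. The former had 1277, 1309 and 1378 CPM in the controls and 2383, 2463 and 2553 CPM with MS-275, its log2 fold change being 0.97 (standard error 0.08). The latter had 1176, 1274 and 1294 CPM in the controls and 2050, 2053 and 2240 CPM with MS-275. In the gene of ranks 26 and 13 these were 1562, 1532 and 1611 CPM in the controls and 2972, 2709 and 2543 CPM with MS-275. In these 3 genes all treated libraries were well above the controls.

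The largest fall among the shared genes was from rank 15 to rank 37. This gene had 1990, 1894 and 1905 CPM in the controls and 1668, 1430 and 1488 CPM with MS-275, which is a ratio of 0.792. There were 3 falls of 18 ranks, 1 of them in the gene of ranks 16 and 34, with 1940, 1941 and 1827 CPM in the controls and 1668, 1590 and 1543 CPM with MS-275. Both were lower in every treated library. The gene of rank 31 in the controls and 44 with MS-275 lost 13 ranks with hardly any change in level, at 1359 ± 38.0 CPM in the controls and 1352 ± 138 with MS-275 (SD, n = 3 each), since others passed it. The gene of rank 9 in the controls and 11 with MS-275 had 2847, 2779 and 2843 CPM in the controls and 3261, 2832 and 2777 CPM with MS-275, so the groups overlapped, with replicate 1 the highest of the treated libraries.

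MS-275 replicate 1 stood apart from replicates 2 and 3 in a set of the most abundant genes. In 7 members it was more than 20% below both other treated libraries, and all 7 were among the 12 most abundant genes with MS-275, at treated ranks 1, 3, 4, 5, 8, 9 and 12. The gene at control rank 3 and treated rank 4 had 4449, 4890 and 5066 CPM in the controls, 4373 CPM in MS-275 replicate 1 and 6931 and 7076 CPM in replicates 2 and 3. For ranks 6 and 9 the values were 3265, 3171 and 3621 CPM in the controls, 3001 CPM in MS-275 replicate 1 and 4572 and 4199 CPM in replicates 2 and 3. The gene at rank 12 in both groups had 2359, 2339 and 2577 CPM in the controls, 2260 CPM in MS-275 replicate 1 and 3115 and 3082 CPM in replicates 2 and 3. In these 3 genes replicate 1 was below every control, and replicates 2 and 3 were above every control in all 7. A difference between the groups in these genes therefore rested on replicates 2 and 3, with the exception of the genes of ranks 1 and 8 with MS-275, which were above every control in replicate 1 as well, and of the gene of rank 3, where replicate 1 exceeded the highest control by less than 10 CPM.

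The 7 genes together held 3.54%, 3.60% and 3.77% of the counts in the controls and 4.01%, 5.43% and 5.54% in the treated libraries. The other 56 members held 8.18%, 8.04% and 8.09% in the controls and 11.3%, 11.3% and 11.6% with MS-275. Since the 7 genes were picked by their low values in replicate 1, nothing is read from this split. Without MS-275 replicate 1, the log2 fold change of the gene of ranks 3 and 4 was 0.62 (standard error 0.07) in place of 0.42 (standard error 0.16). That of the gene of ranks 6 and 9 was 0.46 (standard error 0.07) in place of 0.29 (standard error 0.13). A rise without replicate 1 was fixed by how these genes were picked, so nothing is read from it either. Without MS-275 replicate 2 their log2 fold changes were 0.33 and 0.18, and without replicate 3 they were 0.30 and 0.24. At an adjusted p-value under 0.05 in the main setting (edgeR with TMM scaling), the gene of ranks 3 and 4 passed. The gene of ranks 6 and 9 did not. In the same order, they did not pass in 7 and 8 of the 12 other settings. Replicate 1 also had the highest share of alignments to more than 1 place, which are not counted on any gene, with 9.19% against 8.79% and 8.70% in replicates 2 and 3. The part of these alignments in the lower counts of the 7 genes was not tested. No other treated or control library was more than 20% below both others of its group in more than 2 members.

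**Figure D4:**
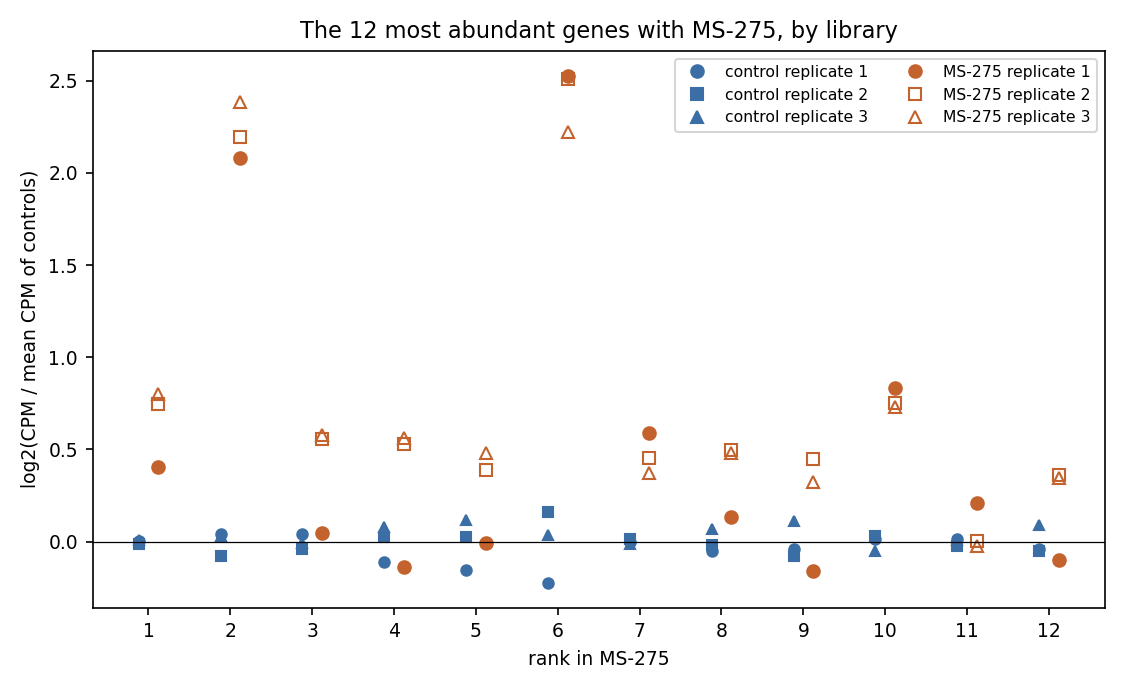
The 12 most abundant genes with MS-275 in every library, as log2 of CPM over the mean CPM of the controls (y axis) by rank with MS-275 (x axis). Blue, controls; orange, MS-275, with replicate 1 filled; replicate 1 is under the other treated libraries by more than 20% at ranks 1, 3, 4, 5, 8, 9 and 12.

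The spread over the 3 libraries, as the SD in percent of the mean, had a median over the 63 genes of 4.56% in the controls and 7.67% with MS-275, and 46 of the 63 genes had the higher spread with MS-275. Control replicate 1 was more than 25% above both other controls in 3 members. One of these was the gene of ranks 22 and 27, with 2101, 1611 and 1451 CPM in the controls and 1903, 1843 and 1577 CPM with MS-275. Its treated libraries all lay within the range of the controls. Another, of ranks 35 and 31, had 1511, 1137 and 1191 CPM in the controls and 2090, 1664 and 1290 CPM with MS-275, so the groups overlapped, and replicate 1 was the highest library in each of them.

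In edgeR's quasi-likelihood test across all genes, with Benjamini-Hochberg adjustment, 37 of the 63 genes were higher and 13 lower with MS-275 at an adjusted p-value under 0.05, and 13 passed in neither direction, which does not show that these 13 did not differ. Of all 12596 genes tested, 32.1% were higher and 31.5% lower by the same rule, 63.6% in either direction. When the log2 fold change also had to reach 1 or -1, 6 members were higher, 5 of them entering genes, and 0 were lower, against 13.9% and 5.16% of all genes tested. DESeq2 also called 6 and 0, and 0 members were lower at an unadjusted p-value under 0.05 with that fold change. The CPM of the groups did not overlap in 31 members that were higher and 17 that were lower, against 30.7% and 38.0% of all genes tested, 68.7% in either direction. Since the members were chosen by their levels in these libraries, nothing is read from these counts. The median log2 fold change was 0.37 over the members and -0.01 over all genes tested with TMM scaling. It was 0.30 and -0.08 with library totals and 0.46 and 0.08 with upper-quartile scaling. CPM by library totals thus lie slightly lower with MS-275 than the TMM scale puts them, and 3 members had opposite directions in mean CPM and in the TMM fit, each with a log2 fold change of at most 0.06 in size.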

How the data were processed

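Libraries were made from 150 ng RNA with 12 PCR cycles; strandedness and annotation release are not given in the sources used here. Reads were cleaned of contaminants with bowtie2 and mapped to Rnor_6.0 by STAR, and the authors deposited raw counts per Ensembl gene for each library. A counting module of subread is named in the methods, but each table closes with 5 lines as htseq-count writes them. These lines name no gene, were left out, and made up 68.6% to 70.8% of a table's total. The line for alignments on no annotated feature alone held 60.2% to 61.9%. Counts on genes, on which all CPM and shares rest, were 30.7% to 31.4% of the total in the controls. With MS-275 they were 29.2% to 30.2%, so the groups did not overlap. What this difference does to the shares was not tested. The submitters' processing notes also name Trimmomatic. A deposited table of the authors' own comparison (group means, fold changes, p-values) was not used.

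CPM were counts over the library's total on genes. Genes kept by filterByExpr were tested with edgeR 4.0.16 (R 4.3.3; TMM, robust glmQLFit, glmQLFTest, no block, Benjamini-Hochberg), and the standard error is the log2 fold change over the square root of F. DESeq2 1.42.0 was an alternative. The fit was tested on simulated data, where it missed some of the changed genes, most often those given the smallest change. Members and lists were chosen with earlier results of these data known. The rule for genes to describe took those entering or leaving, the 10 most abundant of each group, the 8 highest and 8 lowest log2 fold changes and ranks 49 to 52. Other genes described (control ranks 12, 15, 16, 22, 26, 31, 35 and 37) were chosen after their values were seen. Gene lists, cell type markers, the genes Gnas, Dnmt1, Ins1 and Ins2, and levels per length need names or lengths and were not analysed here.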

Additional observations from a re-analysis of the deposited data

Results flagged for a closer look

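Alignments to more than 1 place lie outside the counts on genes, and above they are given only for the treated libraries. Their mean share of the total was 8.89% with MS-275 (SD 0.264, n = 3) against 8.04% for control libraries (SD 0.130, n = 3), and every treated library was above every control. They are listed under no gene. How they are spread over the 63 genes was not tested.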

How the results depend on the processing

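The number of genes in 1 list only, 13, was 12 when genes were ranked by the median of a group and 12 to 13 with each library left out. It was 11 to 13 between single control and treated libraries, an alternative added after the data were seen. TMM factors and DESeq2 size factors gave the same 13 entering and 13 leaving genes. With each library left out, 11 to 13 of the entering and 11 to 13 of the leaving genes were found again, and the union held 62 to 63 genes. The top 25 of each group gave 5 genes in 1 list only and a union of 30, and the top 100 gave 22 and 122, as these lists differ in length. The members gained 4.63 percentage points, and 4.27 to 5.15 with each library left out. The 10 most abundant genes of a library gained 3.33 (3.004 to 3.83) and the 50 most abundant 4.51 (4.16 to 5.01). With the 2 most abundant genes also taken out of the library totals, an alternative likewise added later, these gains were 2.62, 1.19 and 2.50 points; the members' gain was 2.27 with the totals kept.

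Without a fold change threshold 4039 of all genes were higher and 3966 lower, in place of 1754 and 650, and with a log2 fold change of 2 or more in size these were 681 and 34. For the members the counts were 37 and 13 in place of 6 and 0, and 3 and 0 at the higher threshold. With each library left out, 31 to 38 members were higher and 10 to 14 lower at an adjusted p under 0.05 in edgeR, beside 3615 to 4093 and 3401 to 3951 of all genes. With library totals 32 and 15 members passed, beside 3655 and 4457 of all genes, and with upper-quartile scaling 41 and 11, beside 4593 and 3287, so the members' counts moved with those of all genes. Of 456 log2 fold changes (38 genes, 12 other settings), 450 moved by less than the SD of the difference between a treated and a control library (log2 CPM, variances of both groups added) and 416 by less than the standard error. Of the genes, 1, of ranks 38 and 57, changed sign.

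Replicate numbers were not treated as pairs: deviations from the group mean correlated by 0.16, -0.02 and 0.13 between the libraries numbered 1, 2 and 3, and not every library correlated best with its own number. With the replicate block 38 members were higher and 13 lower, beside 4142 and 4113 of all genes. Gene lists, leaving out mitochondrially encoded genes and counts per length were not run.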
